A study of Homo sapiens with 6 samples.

Results

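BASP1, DPYSL3, STMN3, CALB2, ESM1 and ADAMTS12 form a group of 6 genes, out of 27945 in the deposited table, that was picked by symbol because earlier work on these libraries had found them high in p38α-knockout keratinocytes. Their levels in knockout against wild-type cells are therefore a description of how they were chosen, and carry no test. All 6 reached 1 RPKM (reads scaled to exon length and library depth) in at least 1 library and belong to the 12925 genes that passed this filter. The cells are HaCaT, an immortalised human keratinocyte line that grows as a monolayer, either MAPK14-null (knockout of MAPK14, the gene of the p38α stress kinase) or WT (wild type), each given IL-1α in PBS or PBS alone for 4 h. The 6 libraries are 2 knockout libraries with IL-1α (termed stimulated), 1 unstimulated knockout library, 2 wild-type libraries with IL-1α and 1 unstimulated wild-type library. The labels state neither how many clones make up the knockout nor whether replicates were separate cultures, so any p-value measures the spread between these libraries, which may be technical.

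Most of these genes are known from the nervous system rather than from epidermis. BASP1 is a myristoylated protein of the growth-cone membrane that binds phosphoinositides and calmodulin, and DPYSL3 (CRMP4) belongs to the collapsin response mediators, which link semaphorin signals to actin and microtubules. STMN3 is a stathmin, a family that binds tubulin dimers and promotes microtubule disassembly. CALB2 (calretinin) is an EF-hand calcium buffer of interneurons and also a marker of mesothelium. The other two encode secreted proteins: ESM1 (endocan) is a dermatan sulfate proteoglycan best known from activated endothelium, and ADAMTS12 is a metalloprotease that cleaves cartilage oligomeric matrix protein.

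The sequence before the start is shown for BASP1, ADAMTS12 and ESM1, the 3 genes of the group with the widest gap between the lowest knockout and the highest wild-type library. RefSeq windows on GRCh38.p14 matched 5 of the 6 genes, with a pair of windows for DPYSL3. Each window is the 250 bases before the annotated start, 5′ to 3′ on the gene's strand. Windows were matched by symbol only. Their starts were not compared with the gene coordinates behind the deposited values, so a window may lie partly inside the measured transcript. Capitals mark letter matches on either strand to a set of motifs. These are TGANTCA, a loose form of the AP-1 motif with any base at N, and the cyclic AMP response element TGACGTCA. The others are the TATA box TATAAA, the CCAAT box CCAAT and the GC box GGGCGG. The first window lies at chr5:17216573-17216822 on the plus strand, the second at chr5:33891991-33892240 on the minus strand and the third at chr5:54985594-54985843 on the minus strand.
BASP1: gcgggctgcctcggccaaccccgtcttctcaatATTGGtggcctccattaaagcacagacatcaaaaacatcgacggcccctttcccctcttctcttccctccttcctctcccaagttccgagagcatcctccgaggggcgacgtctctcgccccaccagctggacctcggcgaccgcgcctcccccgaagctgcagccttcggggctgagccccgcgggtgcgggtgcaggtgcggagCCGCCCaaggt
ADAMTS12: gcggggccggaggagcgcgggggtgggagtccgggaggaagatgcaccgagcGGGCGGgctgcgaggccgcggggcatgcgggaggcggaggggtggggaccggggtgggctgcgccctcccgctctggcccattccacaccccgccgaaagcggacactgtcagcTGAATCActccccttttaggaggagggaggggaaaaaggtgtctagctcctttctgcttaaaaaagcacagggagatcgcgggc
ESM1: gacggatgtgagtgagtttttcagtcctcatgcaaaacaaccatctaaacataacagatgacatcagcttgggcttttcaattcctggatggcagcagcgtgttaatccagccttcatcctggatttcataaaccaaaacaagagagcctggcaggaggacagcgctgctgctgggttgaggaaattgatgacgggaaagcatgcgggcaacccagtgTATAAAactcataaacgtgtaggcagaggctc

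The window of ESM1 is 47.6% G and C and holds a TATA box match that begins 32 bases before the start, a match that 10.7% of 35093 RefSeq windows of this length hold. The ADAMTS12 window is 68.4% G and C. Its match to the loose AP-1 motif reads TGAATCA and begins 84 bases before the start. Its GC box match begins 198 bases before the start. Of all windows 6.57% hold TGANTCA with any middle base, and a stricter AP-1 motif was not searched. The BASP1 window is 65.6% G and C and holds a CCAAT match 217 bases and a GC box match 11 bases before the start, motifs held by 32.0% and 42.6% of windows. STMN3 (78.0% G and C) and 1 of the DPYSL3 windows (63.6%) held only GC box matches, and the other DPYSL3 window (62.8%) held no match to any of the motifs. The cyclic AMP response element, present in 1.65% of windows, was found in none of the windows of these genes. The median window is 58.0% G and C. These matches describe letters and say nothing about binding.

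Library depth, recovered from the steps of the RPKM values, was 16294199 to 34967501 reads, of which 80.1% to 83.2% lay in exons. The targeted gene MAPK14 was measured at 7.41 to 11.3 RPKM in the 3 knockout libraries and 13.3 to 14.8 RPKM in the 3 wild-type libraries, a log2 difference of -0.61 ± 0.22 under IL-1α (limma adjusted p = 0.301). All 12 keratinocyte markers were above 1 RPKM in at least 1 library. Knockout IL-1α replicate 2 stood apart from the other knockout libraries. Among 9272 genes of at least 5 RPKM, 23 (0.248%) lay at least 4-fold apart on the log2(RPKM + 0.5) scale between the stimulated knockout libraries, 15 of them lower and 8 higher in replicate 2. The median gene differed 1.20-fold between that library and the unstimulated knockout library, against 1.08-fold between knockout IL-1α replicate 1 and the unstimulated knockout library. Between replicates the median gene differed 1.17-fold in the stimulated knockout pair and 1.13-fold in the stimulated wild-type pair. In the wild-type pair 6 of the 9272 genes (0.0647%) lay at least 4-fold apart.

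The first gene, BASP1 (NM_001271606, hg19 chromosome 5, 17216932 to 17276954, plus strand), was measured at 42.8 and 40.0 RPKM in the stimulated knockout libraries and at 34.5 RPKM in the unstimulated knockout library, against 8.33 and 7.55 RPKM in the stimulated wild-type libraries and 4.51 RPKM in the unstimulated wild-type library. Every knockout library lay above every wild-type library, and the lowest knockout level was 4.14 times the highest wild-type level. In these bulk RNA data more expressing cells and more RNA per cell cannot be told apart, for this gene and the others. The antisense gene BASP1-AS1, which overlaps BASP1 in the table, stood at 0.01 RPKM in knockout IL-1α replicate 2 and was listed at 0 in the other 5 libraries. With 1602 to 2059 reads per knockout library and 129 to 239 per wild-type library, BASP1 was well covered.

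DPYSL3 (NM_001387, hg19 chromosome 5, 146770371 to 146833260, minus strand) differed among the knockout libraries more than between genotypes. It reached 22.4 RPKM in knockout IL-1α replicate 1 and 25.2 RPKM in the unstimulated knockout library but 1.02 RPKM in knockout IL-1α replicate 2, against 2.55 and 3.75 RPKM in the stimulated wild-type libraries and 4.04 RPKM in the unstimulated wild-type library. Knockout IL-1α replicate 2 was thus below all wild-type libraries while the other knockout libraries were above them. The 1.02 RPKM rest on 153 reads, so the value is not near the counting floor. The knockout IL-1α pair was 22.0-fold apart for DPYSL3, the second largest gap among the 23 genes that lay 4-fold apart, and DPYSL3 is the only one of the 6 genes among those 23. ESM1 and ADAMTS12 stayed under 5 RPKM in every library and could not be among them. Their knockout IL-1α pairs were 1.41-fold apart for ESM1 and 1.28-fold for ADAMTS12. The wild-type IL-1α pair was 1.47-fold apart.

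STMN3 (NM_001276310, hg19 chromosome 20, 62271058 to 62284119, minus strand) was the most even of the genes across the knockout libraries. Its level was 34.5 and 36.1 RPKM in the stimulated knockout libraries and 32.2 RPKM in the unstimulated knockout library, against 12.5 and 11.4 RPKM in the stimulated wild-type libraries and 17.1 RPKM in the unstimulated wild-type library. The groups did not overlap, but the gap was the narrowest of the 5 non-overlapping genes, at 1.89 times from the highest wild-type to the lowest knockout library. The highest knockout library was 1.12 times the lowest, and the highest wild-type library 1.50 times the lowest.

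CALB2 (NM_007088, hg19 chromosome 16, 71392616 to 71424342, plus strand) stood at 36.8 and 30.1 RPKM in the stimulated knockout libraries and 41.3 RPKM in the unstimulated knockout library, against 7.42 and 6.52 RPKM in the stimulated wild-type libraries and 10.0 RPKM in the unstimulated wild-type library. In both genotypes the unstimulated library was the highest. The lowest knockout level was 3.01 times the highest wild-type level.

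Of the secreted proteins, ESM1 (NM_001135604, hg19 chromosome 5, 54273695 to 54281414, minus strand) was close to absent from wild-type cells. It was measured at 4.63 and 3.28 RPKM in the stimulated knockout libraries and 1.67 RPKM in the unstimulated knockout library, against 0.254 and 0.167 RPKM in the stimulated wild-type libraries and 0.093 RPKM in the unstimulated wild-type library. The wild-type values rest on 8, 6 and 3 reads and the knockout values on 196, 189 and 113 reads, so the size of the ratio is imprecise although the groups were 6.58 times apart at their nearest.

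ADAMTS12 (NM_001324511, hg19 chromosome 5, 33751302 to 33892297, minus strand) was measured at 3.51 and 4.50 RPKM in the stimulated knockout libraries and 4.27 RPKM in the unstimulated knockout library, against 0.367 and 0.46 RPKM in the stimulated wild-type libraries and 0.765 RPKM in the unstimulated wild-type library. The table counts this gene over 1172 exon bases, while the longest ADAMTS12 transcript in GENCODE release 29 has 8774 bases, so the value covers part of the gene only. It rests on 90 to 175 reads per knockout library and 7 to 15 per wild-type library. The nearest knockout and wild-type libraries were 4.59 times apart.

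**Figure D1:**
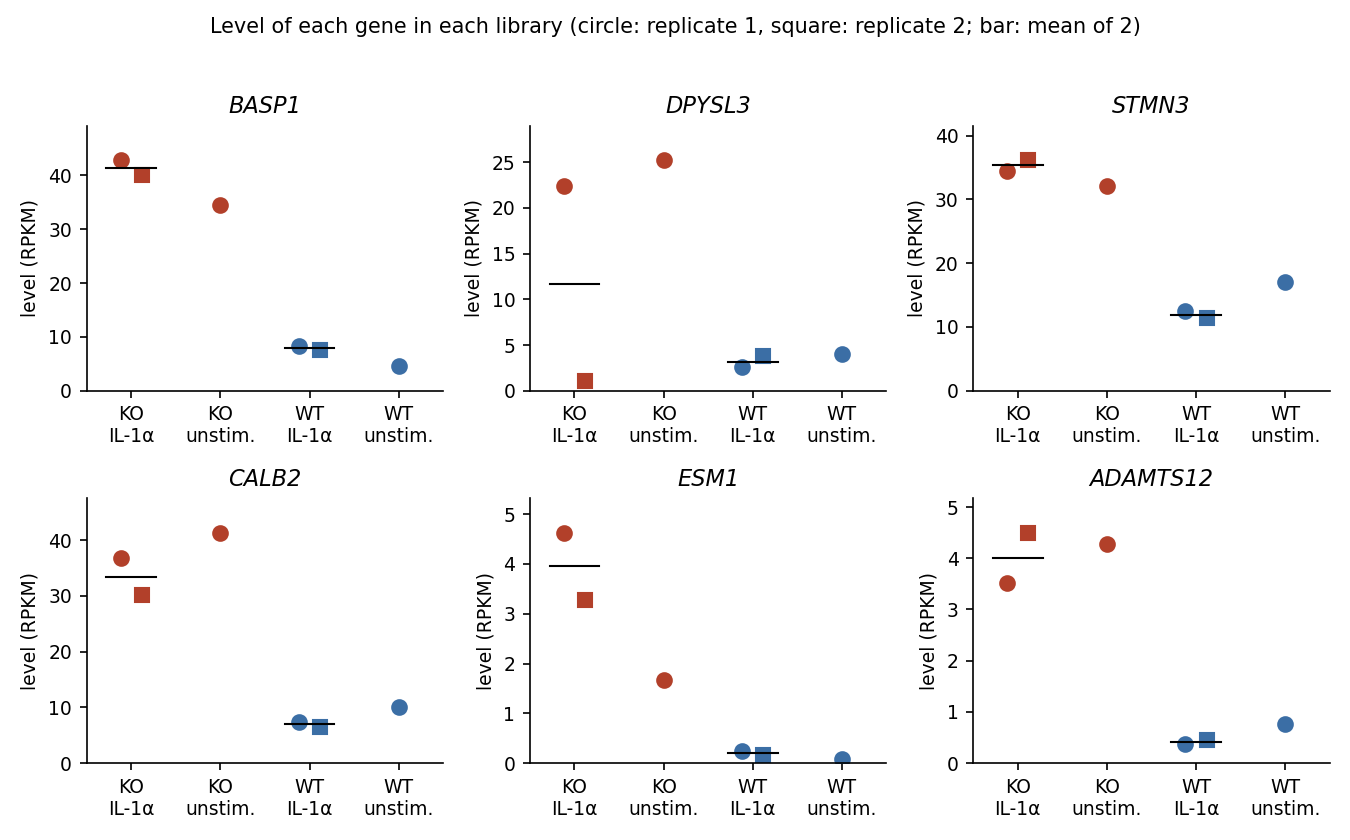
Level in RPKM (vertical axes, starting at 0) of the 6 genes in each of the 6 libraries, knockout (KO, red) left and wild type (WT, blue) right, with a bar at the mean of 2 IL-1α libraries. In 5 genes every knockout library lies above every wild-type library, and in DPYSL3 the second knockout IL-1α library, at 1.02 RPKM, lies below all wild-type libraries.

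Per exon length, BASP1, CALB2 and STMN3 were above most genes in all 3 knockout libraries and the secreted ones were not, while DPYSL3 varied. In the unstimulated knockout library CALB2 exceeded 87.1% of the 12925 genes, BASP1 84.1%, STMN3 82.9% and DPYSL3 78.0%, whereas ADAMTS12 exceeded 30.8% and ESM1 13.1%. In knockout IL-1α replicate 2 DPYSL3 exceeded 8.3% of genes, below ESM1 (25.9%) and ADAMTS12 (32.5%). In the unstimulated wild-type library STMN3 exceeded 67.6% of genes and CALB2 52.8%, so both were already above the middle of the distribution there. BASP1 exceeded 32.6%, DPYSL3 30.1%, ADAMTS12 4.2% and ESM1 0.9% of genes in that library.

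Under IL-1α the knockout pair averaged 41.4 ± 1.99 RPKM for BASP1 (SD, n = 2), against 7.94 ± 0.556 RPKM in wild type, a 5.22-fold difference of means. CALB2 averaged 33.5 ± 4.69 RPKM in knockout and 6.97 ± 0.634 RPKM in wild type, 4.80-fold apart, and STMN3 averaged 35.3 ± 1.18 RPKM in knockout and 11.9 ± 0.791 RPKM in wild type, 2.96-fold apart. The widest relative gaps were those of the least abundant genes: ESM1 averaged 3.95 ± 0.952 RPKM in knockout and 0.211 ± 0.0615 RPKM in wild type, 18.8-fold apart. ADAMTS12 averaged 4.00 ± 0.701 RPKM in knockout and 0.414 ± 0.0658 RPKM in wild type, 9.68-fold apart. DPYSL3 averaged 11.7 ± 15.1 RPKM in knockout and 3.15 ± 0.851 RPKM in wild type, with an SD above the mean in knockout. On the log2(RPKM + 0.5) scale, which understates the change of low genes, the differences of knockout from wild type were 2.63 ± 0.27 (SE) for ESM1, 2.31 ± 0.16 for BASP1, 2.30 ± 0.24 for ADAMTS12, 2.18 ± 0.18 for CALB2, 1.53 ± 0.15 for STMN3 and 0.71 ± 1.13 for DPYSL3. The median of all tested genes was 0.09.

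In limma across all genes 5 of the 6 genes were called higher at a Benjamini-Hochberg adjusted p under 0.05, where 6 of 12925 genes (0.0464%) were called higher. Nothing is read from this count, since this contrast chose the genes, and 0 genes of the whole table were called once any 1 stimulated library was left out. The other gene called higher was TXNIP, a thioredoxin inhibitor. Just outside the threshold lay SERPINE2, a serine protease inhibitor, at 25.6 and 25.0 RPKM in the stimulated knockout libraries, against 9.54 and 8.58 RPKM in the stimulated wild-type libraries, a log2 difference of 1.43 ± 0.16. CNTN1, a neural adhesion molecule of the contactin family, lay there too, at 6.96 and 6.45 RPKM in knockout, against 1.49 and 1.84 RPKM in wild type, a log2 difference of 1.74 ± 0.20. Just inside it lay ESM1 and ADAMTS12. Without knockout IL-1α replicate 2 the log2 difference of DPYSL3 was 2.67, and without knockout IL-1α replicate 1 it was -1.24.

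The unstimulated libraries were also in view when the genes were picked, so their values are a description without a test, and with 1 library per genotype they have no replicates of their own. Of the 6 genes, 5 were at least 2-fold higher in the unstimulated knockout library, where 4.02% of all tested genes were. BASP1 was 7.64-fold higher (exact 95% interval of the read ratio 6.39 to 9.19, counting error only), DPYSL3 6.25-fold (5.59 to 6.997), ADAMTS12 5.58-fold (3.29 to 10.2) and CALB2 4.12-fold (3.59 to 4.75). STMN3, at 1.88-fold (1.73 to 2.06), fell short of 2-fold. The ratio for ESM1 was 18.0, with an interval of 6.01 to 88.7 because the wild-type library held 3 reads. Over all 3 libraries per genotype, 5 of the 6 genes had every knockout library above every wild-type library, as did 15.7% of tested genes. In 4 of them, BASP1, CALB2, ESM1 and ADAMTS12, the lowest knockout library was also at least 2-fold above the highest wild-type library, as in 0.487% of tested genes.

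**Figure D2:**
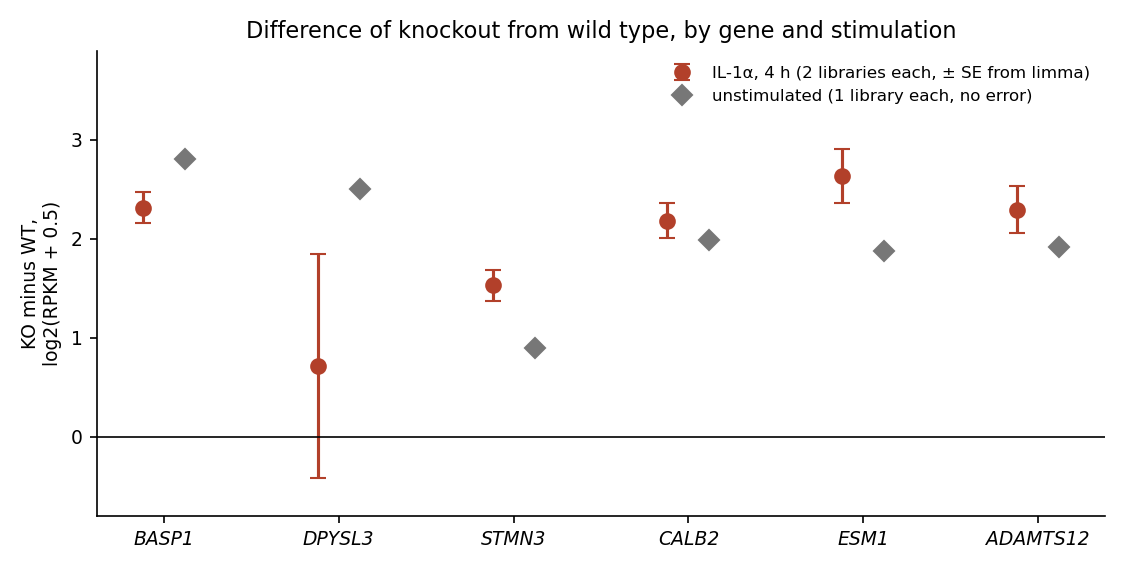
Log2(RPKM + 0.5) difference of knockout from wild type (vertical axis) for each gene under IL-1α (red circles, ± SE from limma, 2 libraries per genotype) and without stimulation (grey diamonds, 1 library per genotype). All values are above 0, between 0.71 and 2.80, and only the error bar of DPYSL3 crosses 0.

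IL-1α itself is a separate contrast, though it shares its stimulated libraries with the one that chose the genes. BASP1 was higher with IL-1α in both genotypes, by 0.31 and 0.21 on the log2(RPKM + 0.5) scale in the stimulated knockout libraries and by 0.82 and 0.68 in the stimulated wild-type libraries, each against the unstimulated library of its genotype. The fitted changes were 0.26 ± 0.19 (SE) in knockout and 0.75 ± 0.19 in wild type, and neither passed in limma (adjusted p = 1 in knockout and 0.157 in wild type). ESM1 was higher by 1.24 and 0.80 in the knockout libraries and by 0.35 and 0.17 in the wild-type libraries. Its fitted changes, 1.02 ± 0.34 in knockout and 0.26 ± 0.34 in wild type, did not pass in limma either (adjusted p = 1 in knockout and 0.717 in wild type). In wild type this difference is between 8 or 6 reads and 3 reads, which is not resolvable at this depth.

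CALB2 was lower with IL-1α in all 4 stimulated libraries, by a fitted change of -0.31 ± 0.22 in knockout and -0.50 ± 0.22 in wild type, and did not pass in limma (adjusted p = 1 in knockout and 0.297 in wild type). STMN3 went opposite ways, with changes of 0.10 and 0.17 in the knockout libraries and of -0.43 and -0.56 in the wild-type libraries. The fitted values were 0.13 ± 0.19 in knockout and -0.50 ± 0.19 in wild type (limma adjusted p = 1 in knockout and 0.245 in wild type). ADAMTS12 changed by -0.09 ± 0.29 in knockout and -0.47 ± 0.29 in wild type (limma adjusted p = 1 in knockout and 0.442 in wild type). DPYSL3 changed by -2.12 ± 1.39 in knockout and -0.33 ± 1.39 in wild type (limma adjusted p = 1 in knockout and 0.917 in wild type). The knockout value is an average of -0.17 in replicate 1 and -4.08 in replicate 2.

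No gene of the 6 passed for IL-1α in either genotype in limma, where 0.0696% of tested genes passed in knockout and 0.217% in wild type. Fits with voom weights also called 0 of the 6 in both. At an unadjusted p under 0.05 stood 1 gene in knockout, ESM1, where 3.58% of all tested genes stood, and 2 genes in wild type, BASP1 and STMN3, where 18.1% of all tested genes stood. The median change of the 6 genes was 0.02 in knockout and -0.40 in wild type, beside medians over all tested genes of -0.02 in knockout and -0.14 in wild type. After rescaling by median-of-ratios size factors the median of all genes in wild type was -0.01. With 1 unstimulated library per genotype, a p that misses the threshold does not show that the genes did not respond.

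**Figure D3:**
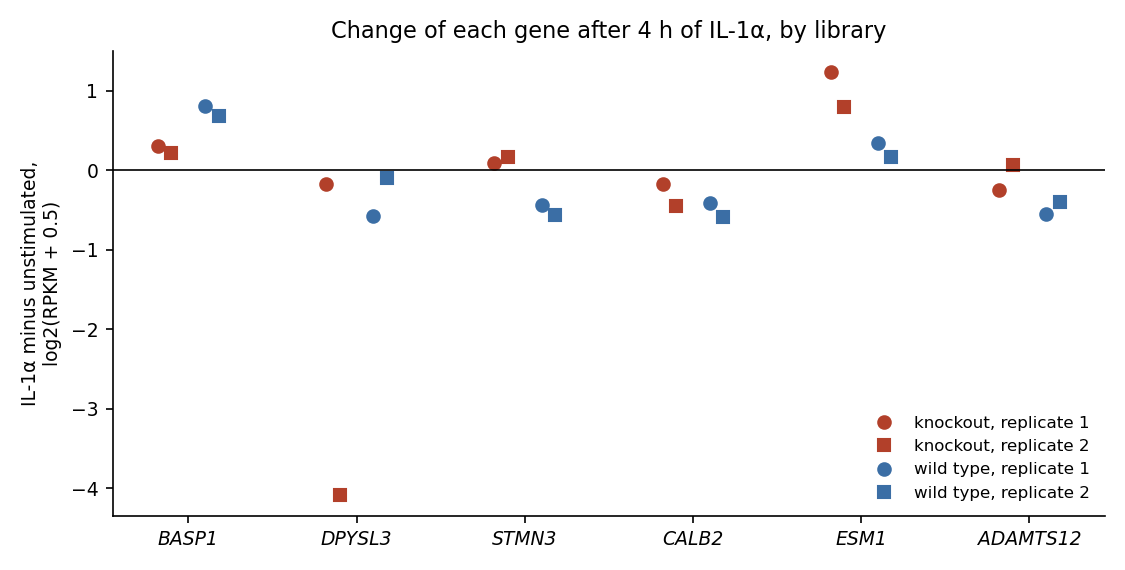
Log2(RPKM + 0.5) of each IL-1α library minus the unstimulated library of the same genotype (vertical axis), by gene, for knockout (red) and wild type (blue). BASP1 and ESM1 are above 0 in all 4 libraries, CALB2 is below 0 in all 4, and DPYSL3 in knockout replicate 2 lies at -4.08.

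**Figure D4:**
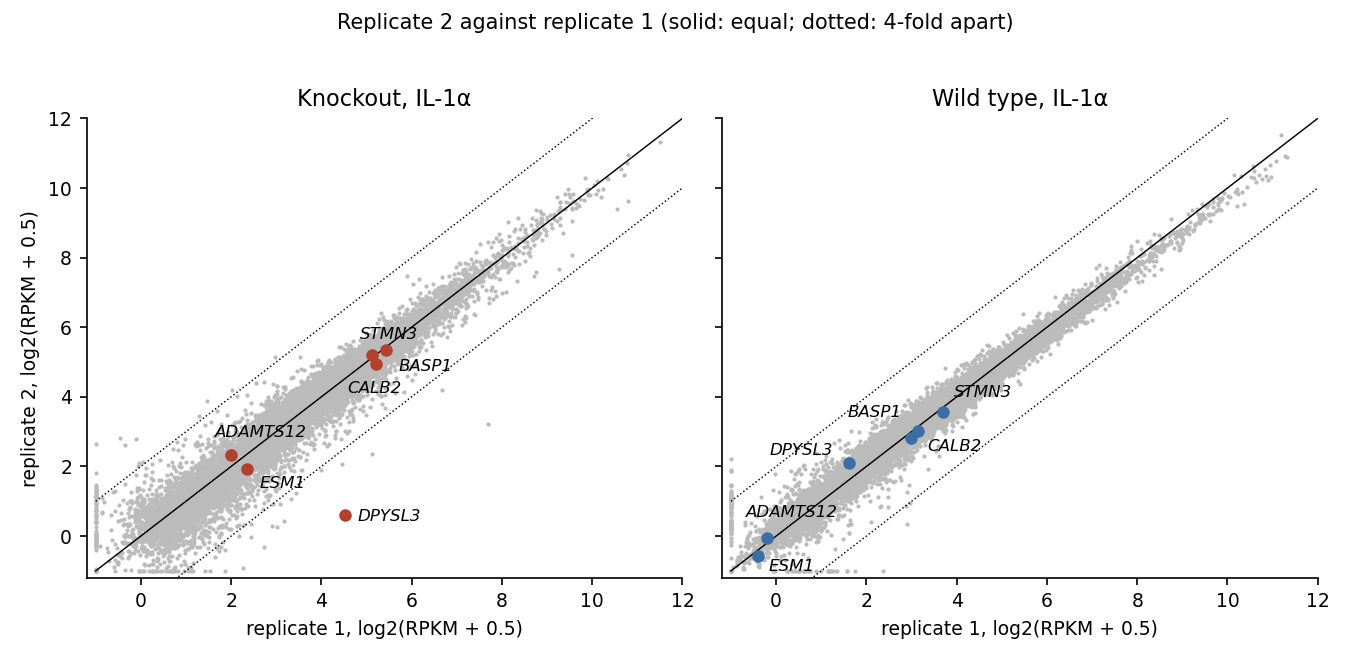
Log2(RPKM + 0.5) in IL-1α replicate 2 (vertical axis) against replicate 1 (horizontal axis) for the 12925 tested genes (grey) and the 6 genes (coloured), in knockout (left) and wild type (right), with dotted lines 4-fold from equality. The 6 genes lie near equality in both genotypes except DPYSL3 in knockout, 22.0-fold apart in RPKM.

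The gap between knockout libraries sets DPYSL3 apart from the other genes of the group. By the root mean square distance of centred log2(RPKM + 0.5) over the 6 libraries, a measure of unlike profiles, DPYSL3 was 1.29 to 1.57 from the others, while the other 5 were 0.21 to 0.72 from one another. The nearest pair was CALB2 and ADAMTS12 (0.21) and the next was BASP1 and ESM1 (0.32). Among genes of at least 5 RPKM in a library, those most like DPYSL3 were SIRPA, a receptor for the CD47 signal (0.46), KCNS3, a potassium channel subunit (0.56), and GPNMB, a transmembrane glycoprotein (0.73). SIRPA stood at 8.46 and 0.845 RPKM in the stimulated knockout libraries and 9.06 RPKM in the unstimulated knockout library, against 1.89 and 1.78 RPKM in the stimulated wild-type libraries and 2.03 RPKM in the unstimulated wild-type library. All 3 genes were among the 15 that were at least 4-fold lower in knockout IL-1α replicate 2 than in replicate 1.

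Genes with a profile like the mean of the 6 were led by CNTN1 (distance 0.21), followed by the actin-binding SHROOM2 (0.23), the retrotransposon-derived PEG10 (0.25), the cadherin CDH4 (0.26), the insulin-receptor adaptor GRB10 (0.27), the clathrin adaptor HIP1 (0.27), PID1 (0.29), ZNF618 (0.29) and the actin bundler LCP1 (0.32). CNTN1 stood at 6.96 and 6.45 RPKM in the stimulated knockout libraries and 8.58 RPKM in the unstimulated knockout library, against 1.49 and 1.84 RPKM in the stimulated wild-type libraries and 1.86 RPKM without stimulation. For single genes, the profiles nearest to BASP1 included those of ZNF618 (0.45) and MYH10, a non-muscle myosin heavy chain (0.49). Nearest to STMN3 were IL27RA (0.10), ITM2C (0.10) and the adducin ADD3 (0.16). CALB2 was nearest to CNTN1 (0.24), CDH4 (0.26) and PEG10 (0.29), and ADAMTS12 to MYH10 (0.16), CALB2 (0.21) and CDH4 (0.24). ESM1 was nearest to BASP1 (0.32), SEMA4D (0.50) and STEAP1 (0.51). These distances rest on 6 libraries that share their genotype and depth differences.

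Relatives of the 6 genes were split between higher and lower. In 7 lists of relatives (stathmins, collapsin response mediators with semaphorins and their receptors, growth-cone membrane proteins, EF-hand calcium proteins, microtubule and neuronal cytoskeleton genes, ADAMTS proteases, and proteoglycans with matricellular proteins) 49 of 105 genes that are not among the 6 reached 1 RPKM. Under IL-1α 26 of these 49 had positive and 23 negative log2 differences of knockout from wild type, with a median of 0.03 beside 0.09 over all tested genes. In limma 0 of 49 passed, where 0.155% of all tested genes passed in either direction. At an unadjusted p under 0.05 stood 11 of 49, where 14.9% of all tested genes stood, and voom weights called 2, LUM and MARCKSL1, both lower in knockout. Without stimulation 6 of the 49 were at least 2-fold higher and 3 at least 2-fold lower in knockout, beside 4.02% higher and 5.49% lower over all tested genes.

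STMN1, the stathmin of dividing cells, stood at 97.4 and 110 RPKM in the stimulated knockout libraries, against 121 and 93.2 RPKM in the stimulated wild-type libraries (log2 difference -0.04 ± 0.19, limma adjusted p = 0.939), beside the 2.96-fold difference of STMN3. The neuronal stathmin STMN2 was listed at 0 in all 6 libraries. Among 11 relatives of DPYSL3 the largest differences were those of DPYSL2 (CRMP2), CRMP1, the semaphorin SEMA3D and the semaphorin co-receptor NRP1. DPYSL2 was measured at 9.92 and 9.31 RPKM in the stimulated knockout libraries and 8.65 RPKM in the unstimulated knockout library, against 2.38 and 4.97 RPKM in the stimulated wild-type libraries and 3.16 RPKM without stimulation. Unlike DPYSL3, it was high in all 3 knockout libraries, yet its difference of 1.35 ± 0.31 did not pass in limma (adjusted p = 0.189). CRMP1 differed by 0.79 (adjusted p = 0.302), SEMA3D by 0.61 (adjusted p = 0.344) and NRP1 by 0.48 (adjusted p = 0.378).

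Growth-cone membrane proteins other than BASP1 had log2 differences that were negative or near 0. MARCKSL1, an actin and calmodulin regulator, was measured at 46.0 and 29.9 RPKM in the stimulated knockout libraries and 26.4 RPKM in the unstimulated knockout library, against 166 and 136 RPKM in the stimulated wild-type libraries and 44.4 RPKM in the unstimulated wild-type library. Its log2 difference under IL-1α was -2.01 ± 0.24 (limma adjusted p = 0.0584; called with voom weights and with a filter of 5 RPKM). L1CAM, a neural adhesion molecule, differed by -1.21 (adjusted p = 0.181), MARCKS by -0.09 (adjusted p = 0.818) and PALM by 0.06 (adjusted p = 0.927), and GAP43 was listed at 0 throughout.

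Other calcium proteins differed less than CALB2, which this contrast had chosen. The neuronal calcium sensor VSNL1 differed by -0.56 (limma adjusted p = 0.232), HPCAL1 by 0.40 (adjusted p = 0.427) and CALM3 by 0.36 (adjusted p = 0.382). PVALB, SCGN and S100B were listed at 0. In the cytoskeleton list the neurofilament light chain NEFL had the largest difference. It was measured at 14.9 and 7.18 RPKM in the stimulated knockout libraries and 19.6 RPKM in the unstimulated knockout library, against 3.15 and 3.49 RPKM in the stimulated wild-type libraries and 5.77 RPKM in the unstimulated wild-type library. All knockout values were above all wild-type values, but the log2 difference of 1.51 ± 0.33 did not pass in limma (adjusted p = 0.179). The filament subunit INA differed by 0.69 (adjusted p = 0.327), tubulin TUBB2A by -0.46 (adjusted p = 0.302) and TUBA1A by -0.33 (adjusted p = 0.683).

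Only 5 of 19 ADAMTS genes reached 1 RPKM in a library. Besides ADAMTS12, ADAMTS9 differed by -0.75 (limma adjusted p = 0.319), ADAMTS6 by 0.69 (adjusted p = 0.382), ADAMTS1 by -0.40 (adjusted p = 0.512) and ADAMTS15 by -0.23 (adjusted p = 0.876). Among proteoglycans and matricellular proteins, tenascin TNC differed by -1.40 (adjusted p = 0.401), with 21.5 and 3.70 RPKM in the stimulated knockout libraries, against 21.7 and 28.7 RPKM in the stimulated wild-type libraries. It was low in the same knockout library as DPYSL3, and without that library its difference was -0.21 and that of ADAMTS15 was 0.70. Lumican, LUM, differed by -1.22 (adjusted p = 0.191), syndecan SDC1 by 0.62 (adjusted p = 0.225) and thrombospondin THBS1 by -0.52 (adjusted p = 0.337). LUM stood at 0 and 0.016 RPKM in the stimulated knockout libraries, against 0.756 and 0.613 RPKM in the stimulated wild-type libraries. Without stimulation it stood at 0 RPKM in knockout and 1.19 RPKM in wild type.

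**Figure D5:**
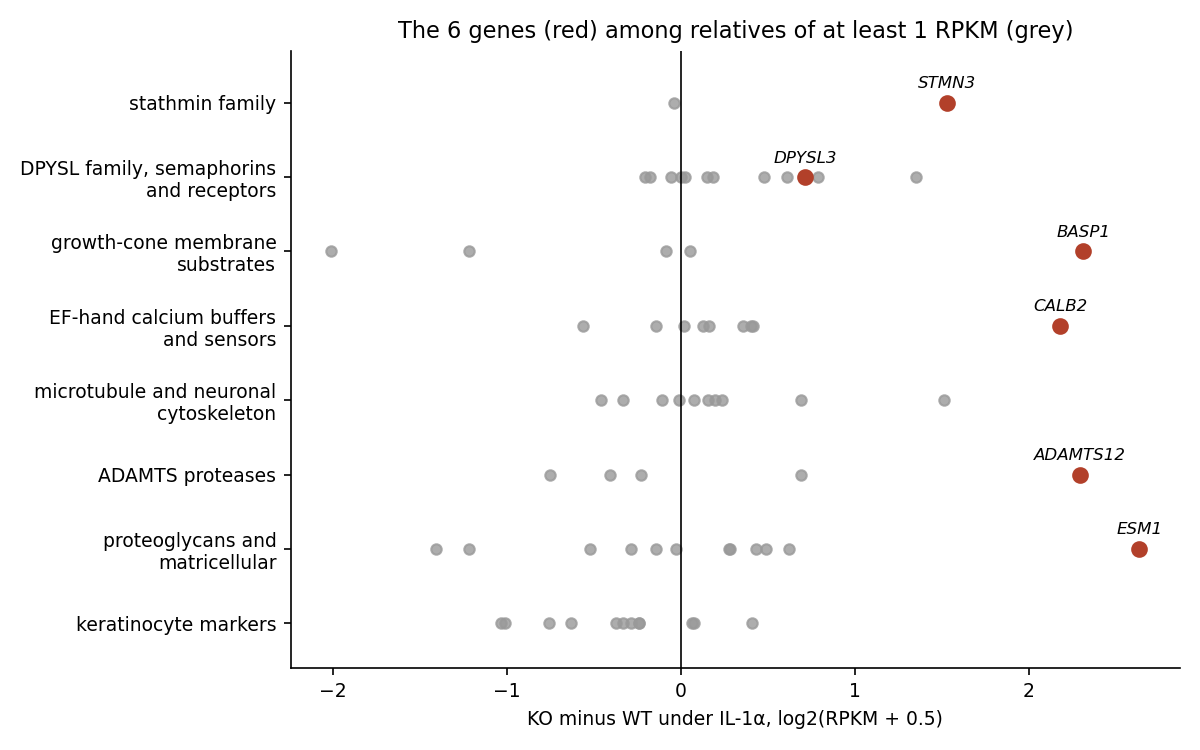
Log2(RPKM + 0.5) difference of knockout from wild type under IL-1α (horizontal axis) for genes of at least 1 RPKM in each list (rows, the last being keratinocyte markers), with the 6 genes in red and the others in grey. BASP1, CALB2, STMN3, ADAMTS12 and ESM1 lie right of all their relatives, whereas DPYSL3, at 0.71, lies among them. This contrast chose the 6 genes and not the relatives, so their places describe the choice and carry no test.

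Markers of the cell types in which these genes are usually found were mostly low. Of 15 neuron markers 5 reached 1 RPKM (SYN1, NEFL, INA, TUBB3 and MAP2) and SNAP25, ELAVL3, ELAVL4, DCX, STMN2 and GAP43 were listed at 0 in every library. The summed level of the neuron list was 68.0 and 56.7 RPKM in the stimulated knockout libraries and 74.8 RPKM in the unstimulated knockout library, against 51.3 and 46.1 RPKM in the stimulated wild-type libraries and 62.7 RPKM in the unstimulated wild-type library. Most of that sum was the tubulin TUBB3, at 44.0 to 48.2 RPKM in the 3 knockout libraries and 38.3 to 50.9 RPKM in the 3 wild-type libraries. Of the 5 markers, 2 (NEFL and INA) had every knockout library above every wild-type library, as did 15.7% of tested genes. Both were also at least 2-fold higher in the unstimulated knockout library, as were 4.02% of tested genes. Of 11 endothelial markers only CDH5 reached 1 RPKM, at 10.3 and 1.84 RPKM in the stimulated knockout libraries, against 11.4 and 11.8 RPKM in the stimulated wild-type libraries, and at 2.94 RPKM in the unstimulated knockout library, against 1.45 RPKM in the unstimulated wild-type library. PECAM1, TEK and TIE1 were listed at 0. Of 10 fibroblast markers 2 and of 7 melanocyte markers 1 reached 1 RPKM, and the melanocyte enzymes TYR and TYRP1 were listed at 0. Of 6 mesothelial markers KRT19, which keratinocyte lines also express, and UPK3B reached 1 RPKM, and WT1 and ITLN1 were listed at 0. UPK3B, an uroplakin, stood at 12.2 and 7.06 RPKM in the stimulated knockout libraries and 13.7 RPKM in the unstimulated knockout library, against 9.29 and 6.74 RPKM in the stimulated wild-type libraries and 12.03 RPKM in the unstimulated wild-type library. The summed level of the list, most of it KRT19, was 627 and 211 RPKM in the stimulated knockout libraries and 746 RPKM in the unstimulated knockout library, against 1021 and 774 RPKM in the stimulated wild-type libraries and 959 RPKM in the unstimulated wild-type library. The 12 keratinocyte markers summed to 3586 and 3629 RPKM in the stimulated knockout libraries and 4027 RPKM in the unstimulated knockout library, against 5537 and 4868 RPKM in the stimulated wild-type libraries and 5409 RPKM in the unstimulated wild-type library. Abundant genes weigh most in this sum. In the stimulated libraries SFN stood at 622 and 695 RPKM in knockout, against 1583 and 1147 RPKM in wild type. KRT14 stood at 947 and 982 RPKM in knockout, against 1542 and 1445 RPKM in wild type. Under IL-1α 9 of the 12 had negative and 3 positive log2 differences, the positive ones being TP63 (0.41), KRT5 (0.08) and ITGA6 (0.07). SFN (-1.03), JUP (-1.01), DSG3 (-0.76) and KRT14 (-0.63) had the largest differences. In limma 0 of 12 passed, beside 0.155% of all tested genes. At an unadjusted p under 0.05 in limma stood 3 of 12, beside 14.9% of all tested genes, and voom weights called 0. Without knockout IL-1α replicate 2 the differences of JUP (-0.42) and DSG3 (-0.17) were smaller, and those of SFN (-1.11) and KRT14 (-0.66) were not. The part of these marker sums in the differences of the 6 genes was not tested.

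Position was not part of the choice. BASP1, ADAMTS12, ESM1 and DPYSL3, 4 of the 6 genes, lie on chromosome 5, which holds 590 (4.56%) of the 12925 tested genes, while CALB2 lies on chromosome 16 and STMN3 on chromosome 20. By their hg19 coordinates the genes on chromosome 5 lie far from one another. The median log2 difference of tested genes on chromosome 5 was 0.11 under IL-1α and 0.10 without stimulation, beside 0.09 and -0.01 over all tested genes. Without stimulation 5.08% of chromosome 5 genes were at least 2-fold higher in knockout, beside 4.02% over all chromosomes. Among the 23 chromosomes compared, chromosome 5 ranked at place 10 for the median under IL-1α and at place 1 for the median without stimulation. That first place was nearly a tie, at 0.095 beside 0.093 on chromosome 21 and 0.09 on chromosome 10. The share of genes at least 2-fold higher was larger on other chromosomes, such as 7.58% on chromosome 22 and 6.75% on chromosome 20.

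The median log2 difference under IL-1α of the 5 nearest tested genes on each side was 0.18 around BASP1, -0.05 around DPYSL3, 0.15 around STMN3, 0.01 around CALB2, 0.13 around ESM1 and 0.17 around ADAMTS12. Without stimulation the same medians were 0.63 around BASP1, 0.23 around DPYSL3, -0.03 around STMN3, 0.26 around CALB2, 0.08 around ESM1 and 0.17 around ADAMTS12, beside -0.01 over all tested genes. Of the 10 neighbours of BASP1, 3 were at least 2-fold higher in the unstimulated knockout library, beside 4.02% of all tested genes, and with 20 neighbours the median was 0.37. None of the 10 neighbours of any of the 6 genes was called in limma, where 0.155% of all tested genes were called. The nearest tested genes were often far away. On one side of BASP1, at 280547 bases, the myosin MYO10 was measured at 22.5 and 17.7 RPKM in the stimulated knockout libraries, against 14.1 and 18.2 RPKM in the stimulated wild-type libraries (0.31 ± 0.21, limma adjusted p = 0.511), and at 18.6 RPKM in knockout, against 7.78 RPKM in wild type, without stimulation. GUSBP1, on the other side of BASP1 at 4182635 bases, differed by 0.11 (limma adjusted p = 0.865). SPINK5, an epidermal protease inhibitor 610275 bases from DPYSL3, differed by 0.73 (limma adjusted p = 0.21). GPX8, 174532 bases from ESM1, differed by 0.87 (limma adjusted p = 0.181). The other nearest tested genes, PPP2R2B, MHENCR, RTEL1-TNFRSF6B, CMTR2, ZNF23, SNX18, TARS and C1QTNF3-AMACR, lay 5044 to 512023 bases away. They differed by -0.07 to 0.54 and did not pass.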

How the data were processed

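The deposited values are RPKM per gene, which the authors made, per the file headers, with HOMER's analyzeRepeats on hg19 in exon-counting mode with 1 row per gene; the headers also write FPKM. Per the submitters' processing notes, bcl2fastq 2.20.0.422 and STAR came before it. The strand setting is not given in the sources used here. Values were used as deposited. Depth was recovered as the read number that makes values of 0.02 to 1 RPKM whole (tolerance 0.1 read; 97.9% to 99.8% of values). Genes with at least 1 RPKM in a library entered, as log2(RPKM + 0.5), a linear model of the 4 groups with a variance trend (limma 3.58.1 under R 4.3.3) and Benjamini-Hochberg adjustment over all 12925 genes at 0.05. The residual spread comes from the IL-1α pairs (2 residual degrees of freedom). Unstimulated genotypes, 1 library each, were compared by fold alone. On simulated data with large known changes and an equal spread for all genes, the fit found the changed genes but made more false calls than the nominal rate. Only knockout against wild type under IL-1α was scored. Smaller changes and the response to IL-1α were not simulated, so the power to find them was not tested. Intervals and reads cover counting error only.

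The 6 genes and all lists were chosen with earlier results of these data known. Named relatives were up to 4 per list by size of log2 difference. Named profile neighbours were the 10 nearest to the mean and the 3 nearest to each gene. Some genes that these rules name are not reported here. TXNIP, SERPINE2, LUM, KRT19, UPK3B and CDH5 were named after their values were seen. Alternatives were other pseudocounts, filters and normalizations, no trend, voom weights, a replicate block and leaving out each IL-1α library.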

Additional observations from a re-analysis of the deposited data

Results flagged for a closer look

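STMN3 moved in opposite directions with IL-1α in the genotypes: both knockout IL-1α libraries were above the unstimulated knockout library, and both wild-type IL-1α libraries were below the unstimulated wild-type library. The log2 interaction was 0.63 ± 0.27 (SE) and did not pass in limma (adjusted p = 0.966). It contains the contrast that chose the gene, so the value is a description. Of the 12925 tested genes 8.71% showed the same pattern of signs.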

How the results depend on the processing

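The 5 genes other than DPYSL3 had a positive knockout minus wild-type difference under IL-1α in every setting that they entered. ESM1 and ADAMTS12 did not enter the fit with a filter of 5 RPKM. Since this contrast chose the genes, the steady sign is a description and carries no support. The log2 differences were 2.21 to 2.39 for BASP1, 2.04 to 2.32 for CALB2 and 1.43 to 1.59 for STMN3. Those of ESM1 were 2.02 to 4.14 and those of ADAMTS12 1.82 to 3.21. DPYSL3 was at -1.24 without knockout replicate 1 and 2.67 without knockout replicate 2, and its interaction at -3.75 and 0.17. The IL-1α change of ADAMTS12 in knockout was 0.068 without knockout replicate 1 and -0.25 without replicate 2. Counts of called genes and their direction depended on the setting, and the cause was not tested. In knockout the main fit called 9 genes higher and 0 lower with IL-1α, against 1 higher and 64 lower with no filter. In wild type it called 26 higher and 2 lower, against 2 higher and 47 lower with no filter. For IL-1α in knockout 9 genes were called, against 5 with pseudocount 1, 65 with no filter, 49 with a filter of 5 RPKM, 4 without the variance trend, 2 with voom weights and 0 to 0 with a library left out. For IL-1α in wild type 28 were called, against 49 with no filter, 162 with a filter of 5 RPKM, 48 with median-of-ratios rescaling, 15 with voom weights and 0 to 46 with a library left out. For knockout against wild type under IL-1α 20 were called, against 7 with pseudocount 0.1, 0 with no filter, 88 with a filter of 5 RPKM, 13 with quantile normalization, 0 without the trend, 56 with voom weights and 0 to 0 with a library left out. With the replicate number as a block 62 were called (17 higher, 45 lower), but the labels do not say whether the numbers pair the libraries. Deviations of same-numbered libraries correlated at 0.009 over 12925 genes. That value shows no shared deviation and cannot tell how the replicates were made. The interaction called 0 genes in limma (567 at an unadjusted p under 0.05) and 87 with no filter. Without stimulation 1228 genes passed 2-fold, against 282 at 4-fold and 539 where the higher level had to reach 5 RPKM. With the 10 nearest genes on each side the neighbour medians were 0.16 for DPYSL3, 0.19 for ESM1 and 0.15 for ADAMTS12. Leaving out knockout replicate 2 for named list genes, chosen after seeing the data, turned the differences of ADAMTS15 (0.70, against -0.23 with all libraries), TUBA1A (0.14, against -0.33), PALM (-0.14, against 0.06) and the fibroblast marker COL1A1 (0.22, against -0.12). A fit without a library assumes that the lone library varies like the other groups.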
